A study of Mus musculus with 4 samples.

Results

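The 6 miRNAs described here, mmu-miR-142a-3p, mmu-miR-142a-5p, mmu-miR-223-3p, mmu-miR-146a-5p, mmu-miR-146b-5p and mmu-miR-155-5p (written without the mouse prefix below), are best known from white blood cells and inflammation, and they were read out in overloaded mouse skeletal muscle by chimeric eCLIP-seq. In this assay the Argonaute protein Ago2 is pulled down, and each miRNA it carries is joined by ligation to the stretch of target RNA held with it, so that 1 chimeric read names a miRNA and its target. Every place listed with 1 of the 6 names was taken, and a place with its miRNA is called a line below. There were 1133 such lines of 93468 in the control library and 1081 of 100897 in the mimic library. They held 1607 of 232408 chimeric reads (0.691%) in the control and 1498 of 259207 (0.578%) in the mimic.

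Both libraries came from the plantaris of adult 5-month-old male C57BL/6J mice after 10 days of MOV, mechanical overload, in which a part of the calf muscles that share the work of the plantaris is removed. In the group labelled MOV_Control the muscle carried a control lentivirus, and in MOV_Mimic a lentivirus with a miR-1 mimic, both driven by the mouse CMV promoter with TurboGFP, so the control was injected and overloaded too. According to the methods the control virus went into the left and the mimic virus into the right plantaris, so side and virus cannot be told apart, and whether both libraries came from the same mouse was not stated. Each group had 1 library, so no difference between them was tested, and all intervals are 95% intervals that cover counting error only. INPUT_Control and INPUT_Mimic libraries were not analysed here.

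A miRNA guides Argonaute to mRNAs that pair with its seed, the bases next to its 5′ end, and the bound mRNA is then repressed. Both arms of the miR-142a hairpin are made in cells of the blood lineage, and miR-223 is a miRNA of myeloid cells such as neutrophils and macrophages. The miR-146 pair and miR-155 are switched on by inflammatory signals through NF-kappa B, miR-146 as a brake on that pathway and miR-155 in activated macrophages and lymphocytes. Overload surgery is known to draw such cells into muscle.

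The mature sequences show which members can share targets, with the seed (bases 2 to 8) in capitals, 5′ to 3′, from RefSeq (GRCm38.p6).
miR-142a-3p: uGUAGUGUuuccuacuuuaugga
miR-142a-5p: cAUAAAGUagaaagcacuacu
miR-223-3p: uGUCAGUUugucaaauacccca
miR-146a-5p: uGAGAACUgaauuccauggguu
miR-146b-5p: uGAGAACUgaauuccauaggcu
miR-155-5p: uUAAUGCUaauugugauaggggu
All 6 names were matched. Only miR-146a-5p and miR-146b-5p shared a seed, and they had 20 of 22 bases in common, differing by G18A and U21C (miR-146a-5p base first, counted from 1 at the 5′ end). The miR-146a hairpin lies at chr11:43374397-43374461 on the minus strand and that of miR-146b at chr19:46342762-46342870 on the plus strand. The arms of miR-142a come from 1 hairpin at chr11:87756864-87756927 on the plus strand and have different seeds. The hairpin of miR-223 lies at chrX:96242817-96242926 and that of miR-155 at chr16:84714140-84714204, both on the plus strand.

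Shown next are 7 stretches of 25 bases from target genes that hold a match to the seed, in capitals, on the sense strand. Of these, the match in the cytochrome b gene lies in the miRNA's peaks, that in ND1 lies past their end, and for the nuclear ones the place of the peak was not determined. The first set is mitochondrial, at chrM:14286-14310 in the cytochrome b gene and at chrM:3627-3651 in ND1, on the plus strand, and it is shown because mitochondrial RNA held a large part of the reads of miR-142a-3p and miR-155-5p.
CYTB, miR-142a-3p: ggtcttttcttagccatACACTACa
ND1, miR-155-5p: tttctacccctaacactAGCATTAt
The second set is nuclear and comes from target transcripts named below. It was read from the longest mm9 GENCODE transcript of each gene.
Fcgr2b 3′ UTR, miR-142a-3p: agtcctgaaaccaacagACACTACg
Itgav 3′ UTR, miR-142a-3p: tagaacaggtacacattACACTACa
Cfl2 3′ UTR, miR-142a-3p: ggtttcccgatgagtgtACACTACt
Furin coding sequence, miR-142a-3p: ccccaagtccttgatacACACTACa
Card10 3′ UTR, miR-146a-5p and miR-146b-5p: tacacaccctggaatagAGTTCTCa

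miR-142a-3p was by far the most frequent of the 6, with 1158 reads (1092 to 1227, exact Poisson interval) over 647 lines in the control and 1070 reads (1007 to 1136) over 612 lines in the mimic. It ranked 38 and 40 by reads among all miRNA names of the control and the mimic. miR-223-3p followed in the control with 173 reads (148 to 201) over 180 lines, but had 77.9 reads (61.7 to 97.3) over 97 lines in the mimic. The other arm of the miR-142a hairpin, miR-142a-5p, had 106 reads (86.8 to 128) in the control and 121 (100 to 145) in the mimic. miR-146a-5p had 73.6 reads (58.1 to 92.9) and 84.5 (67.9 to 105). miR-155-5p had 59.8 reads (45.8 to 77.2) in the control and 110 (90.4 to 133) in the mimic. miR-146b-5p was the rarest in both, with 36.6 reads (26.1 to 51.0) and 35.5 (25.2 to 49.8). In the control the order was thus miR-142a-3p, miR-223-3p, miR-142a-5p, miR-146a-5p, miR-155-5p and miR-146b-5p, and the intervals of neighbours overlapped from miR-142a-5p to miR-146b-5p. In the mimic the order was miR-142a-3p, miR-142a-5p, miR-155-5p, miR-146a-5p, miR-223-3p and miR-146b-5p, and neighbours from miR-142a-5p to miR-223-3p overlapped.

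**Figure D1:**
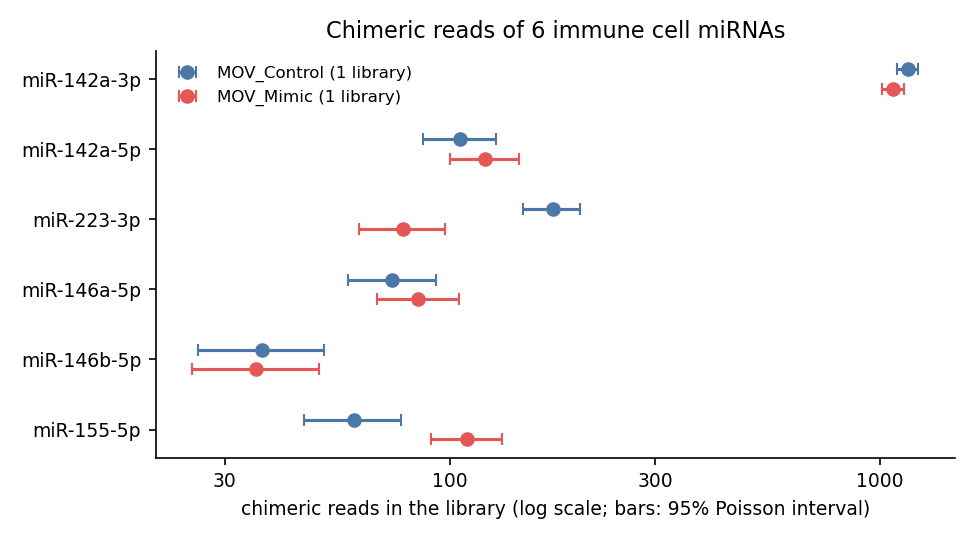
Chimeric reads of the 6 miRNAs (x axis, log scale) in the MOV_Control and MOV_Mimic libraries, 1 point a library, with 95% Poisson intervals for counting error. The intervals of the 2 libraries lie apart for miR-223-3p (173 and 77.9 reads) and miR-155-5p (59.8 and 110 reads) and overlap for the other 4 miRNAs.

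The member reads were spread thinly. Of their lines, 62.8% in the control and 62.3% in the mimic held less than 1 read, since the deposited values are fractions of reads, against 55.5% and 56.3% of the lines of all miRNAs. Lines of at least 3 reads numbered 46 and 48 for miR-142a-3p, 12 and 2 for miR-223-3p, 4 and 4 for miR-142a-5p, 4 and 1 for miR-146a-5p, 1 and 4 for miR-155-5p, and 0 and 0 for miR-146b-5p. Very small values weighed on the number of lines of miR-223-3p in particular. There, 46 of 180 control lines held less than 0.1 reads, and 23 of these lay on Actn2, a muscle sarcomere gene, with 0.0121 reads in all. Reads rather than lines are therefore used for levels.

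The mimic to control read ratio was lowest for miR-223-3p and high for miR-155-5p. For miR-223-3p it was 0.449 (0.341 to 0.592, exact conditional binomial interval) before and 0.403 after division by the library totals, whose ratio was 1.12. This was the lowest of 148 miRNAs that had at least 50 lines in each library, followed by miR-124-3p at 0.622. For miR-155-5p the ratio was 1.84 (1.33 to 2.55), or 1.65 after division by the totals, second from the highest of the 148, after miR-378c at 2.74. The ratios of the other members were 0.924 (0.85 to 1.0) for miR-142a-3p, 1.14 (0.872 to 1.5) for miR-142a-5p, 1.15 (0.831 to 1.59) for miR-146a-5p and 0.970 (0.598 to 1.58) for miR-146b-5p. Over the 148 miRNAs the median ratio was 1.06, and 90% of them lay between 0.764 and 1.46. Past 1.5-fold in either direction after division by the totals were 2 of the 6 members, miR-223-3p and miR-155-5p, and 10 of the 148 miRNAs (6.76%), of which 4 (2.7%) were higher and 6 (4.05%) lower in the mimic.

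**Figure D2:**
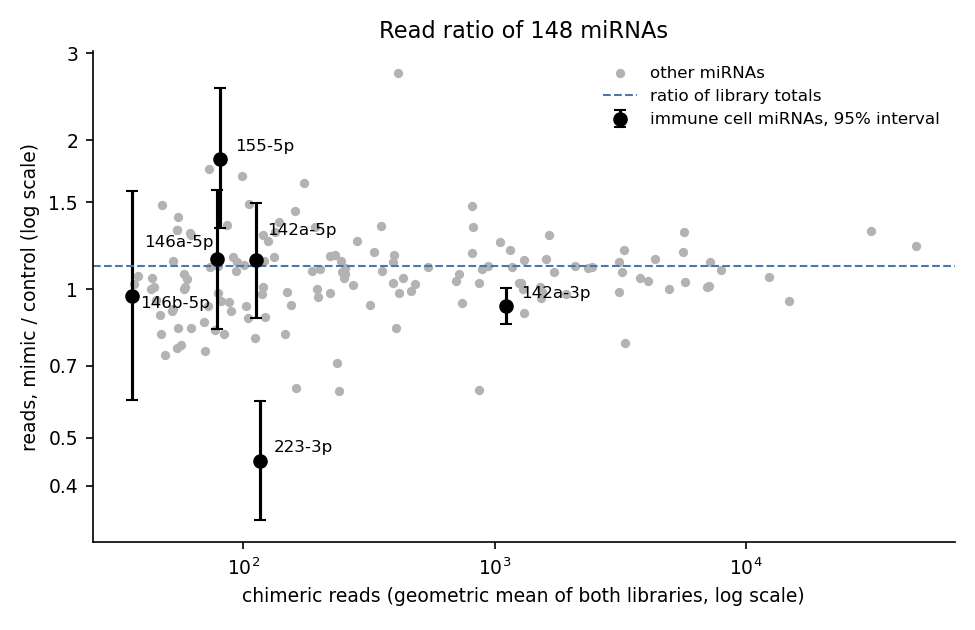
Read ratio of mimic to control (y axis, log scale) against the geometric mean of reads in both libraries (x axis, log scale) for 148 miRNAs, with the 6 members in black with 95% intervals, and the ratio of library totals, 1.12, as a dashed line. miR-223-3p lies lowest at 0.449, and miR-155-5p lies at 1.84 with 1 grey point, miR-378c at 2.74, above it.

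The values for both did not rest on 1 place. Without its line with the most reads in each library miR-223-3p had a ratio of 0.451 and miR-155-5p one of 2.05. On nuclear genes outside the ribosomal locus the ratios were 0.462 (0.339 to 0.611) for miR-223-3p and 2.15 (1.28 to 3.61) for miR-155-5p. In a bulk muscle, fewer cells that carry a miRNA and less of it per cell cannot be told apart. The genes of a list of 60 leukocyte markers had 1127 control reads and 1133 mimic reads of all miRNAs, a ratio of 1.01 (0.925 to 1.09). Of the 60 genes 45 and 41 had a line. These reads are not a count of cells, since the listed genes do not name a cell. Most abundant on the list was Tmsb4x, an actin-binding gene not restricted to leukocytes, with 295 and 286 reads and none from the members. In the control Psap (105 reads), Ctsb (83.5), Cd44 (70.0) and Lpl (53.3) followed, so a few genes weighed most on the sum. The genes of the list moved both ways, with 23 higher in the control, 25 higher in the mimic and 12 without a line in either. Among these 12 were Cd68, Itgam, Aif1, Cd14 and Cybb of myeloid cells and S100a8 and S100a9 of neutrophils. Among those higher in the control, Fcgr3 had 19.1 and 5.72 reads of all miRNAs. Of these miR-142a-3p held 17.1 and 4.75, so the Fcgr3 total is not independent of the members. Mpeg1 had 10.8 and 4.85, Coro1a, an actin regulator of leukocytes, 10.1 and 0, and Spi1, the myeloid transcription factor PU.1, 2.7 and 0. Among those higher in the mimic, Cd74 had 38.2 and 71.6 reads, H2-Aa 27.5 and 37.6, and Dock2 5.04 and 11.4. Ptprc, which encodes CD45, had 10.1 and 13.3 reads of all miRNAs and 0 from members, and Csf1r, the macrophage growth factor receptor, 20.5 and 36.3, of which members held 0.864 and 0. The part of cell number in the miR-223-3p and miR-155-5p ratios was not tested.

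On nuclear genes miR-223-3p and miR-142a-3p met leukocyte messages more often than most miRNAs did. Of the reads of miR-223-3p outside mitochondria and the ribosomal locus Rn18s-rs5, 16.9% (11.6 to 24.2, exact Clopper-Pearson interval) lay on the 60 leukocyte genes in the control and 17.2% (9.32 to 28.4) in the mimic, the highest share of the 148 miRNAs in each library. For miR-142a-3p the shares were 7.07% (5.15 to 9.25) and 6.24% (4.41 to 8.38), and for miR-146a-5p 4.97% (1.12 to 14.9) and 3.48% (0.375 to 10.7). For all miRNAs together but the 6 they were 0.571% (0.537 to 0.607) and 0.519% (0.489 to 0.551). The median over the 148 miRNAs was 0.365% (control) and 0.434% (mimic). Ranked by the mean of both libraries, miR-223-3p had rank 1 of the 148, miR-142a-3p rank 3, miR-146a-5p rank 6 and miR-142a-5p rank 8, and miR-339-5p, at 16.2% and 16.0%, was next below miR-223-3p. The rank of miR-142a-5p came from 6.6 reads in the mimic alone, with 0 in the control. That of miR-146a-5p rested on 2.77 and 2.26 reads. Fcgr3 and Ctsz had been seen as targets of members before the list was made. Without these genes the shares were 8.0% and 8.92% for miR-223-3p and 4.42% and 5.47% for miR-142a-3p. The ranks are those of the full list, so they draw in part on genes chosen with these data known. Ctsz alone held 13.5 of the 25.5 control reads of miR-223-3p on the list.

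The remaining members gave shares with wide intervals, and for a count of 0 the share that 3 reads would be is given, with the upper Clopper-Pearson limit after it. miR-142a-5p had 0 of 68.7 nuclear reads on the leukocyte genes in the control, which allows a share of up to 4.37% (5.21%), and 7.71% (3.34 to 16.1) in the mimic. miR-146b-5p had 3.21% (0.0791 to 16.2) in the control and 0 of 29.2 reads in the mimic, which allows up to 10.3% (11.9%). miR-155-5p had 0.380% (0 to 14.2) in the control and 0 of 50.7 reads in the mimic, which allows up to 5.92% (6.98%).

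The muscle side of the same reads ran the other way. A list of 40 muscle fibre genes held 28.9% and 32.5% of the nuclear reads of all miRNAs, and 50.8% and 53.6% of those of miR-133a-3p, a miRNA of muscle fibres. Of miR-142a-3p they held 5.43% (3.82 to 7.49) and 7.42% (5.53 to 9.85), and of miR-223-3p 4.56% (1.88 to 9.32) and 7.0% (2.39 to 16.1). The median over the 148 miRNAs was 14.6% and 17.5%, and by the mean of both libraries these 2 ranked 126 and 129 from the highest. Low muscle shares were not particular to the members. The vascular miR-126a-3p had 4.48% and 6.39%, and miR-130a-3p 0.589% and 0.927%. miR-133a-3p in turn had 0.121% and 0.107% of its nuclear reads on the leukocyte genes, and miR-1a-3p, the miRNA that the mimic supplies, 0.590% and 0.471%. miR-155-5p had 24.7% (9.77 to 46.7) and 14.9% (7.02 to 28.6) of its nuclear reads on muscle genes, above the median of the 148 miRNAs in the control (14.6%) and below it in the mimic (17.5%).

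**Figure D3:**
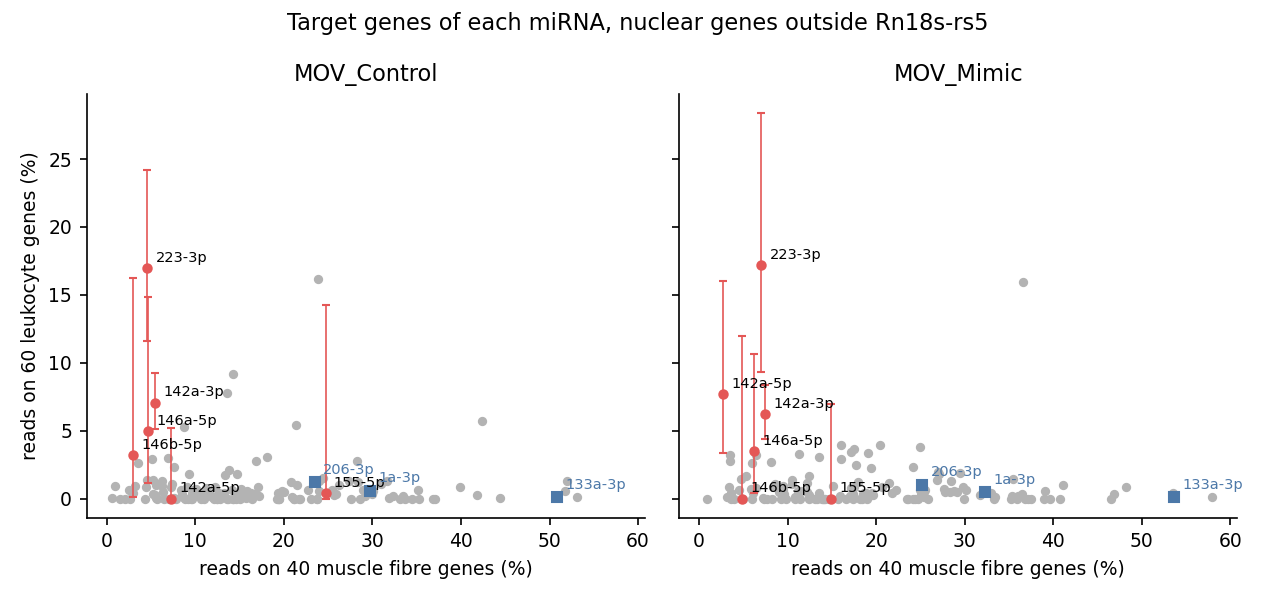
Share of a miRNA's nuclear reads on 60 leukocyte genes (y axis, percent) against its share on 40 muscle fibre genes (x axis, percent), 1 panel a library, with the 6 members in red with 95% Clopper-Pearson intervals of the leukocyte share, 3 muscle miRNAs in blue and the other miRNAs of the 148 in grey. miR-223-3p (16.9% and 17.2%) and miR-142a-3p (7.07% and 6.24%) stand high at the left, and miR-133a-3p stands low at the right with 50.8% and 53.6% on muscle genes. The 60 genes include Fcgr3 and Ctsz, which had been seen as targets of members before they were listed.

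miR-142a-3p had lines on 15 leukocyte genes of the control and 13 of the mimic, 10 of them in both. With a line of any miRNA there were 45 and 41. Of the muscle fibre genes 16 and 16 had a line of miR-142a-3p, 10 of them in both, and 39 and 40 one of any miRNA. By number of genes the leukocyte list thus did not stand out. Of the reads of all miRNAs on Fcgr3, an activating receptor for IgG, miR-142a-3p held 17.1 of 19.1 in the control, 89.2% (66.9 to 98.7), and 4.75 of 5.72 in the mimic, 83.0% (35.9 to 99.6). The peak lay at chr1:171054022-171054101 on the minus strand. On Fcgr2b, the inhibitory IgG receptor on the same strand of that chromosome, miR-142a-3p held 8.16 of 10.0 reads in the control, 81.3% (44.4 to 97.5). In the mimic it held 11.9 of 17.4, 68.2% (44.0 to 89.7). Its highest control peak there was at chr1:170966521-170966598. The 2 receptors are close paralogs, and how reads common to them were shared out was not stated.

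The Fcgr2b transcript held 1 match to the miR-142a-3p seed, in its 3′ UTR, whereas that of Fcgr3 held none of the 7-base match and 1 of its last 6 bases. On Cd52, a small surface protein of lymphocytes and macrophages, miR-142a-3p had 5.06 of 8.77 reads (57.7%) in the control and 34.3% of the reads, 2.77, in the mimic. Apoe, the lipid carrier made by macrophages, had 4.74 reads of miR-142a-3p in the control, 12.1% (4.30 to 27.4) of the gene, and 5.83 in the mimic, 29.4% (11.9 to 54.3). Ctss, a lysosomal protease of antigen-presenting cells, had 1.84 and 1.39 reads, and Mpeg1, a pore-forming protein of macrophages, 1.66 and 0.444.

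Outside that list, the leading genes of miR-142a-3p were of several kinds. Kctd12, an auxiliary subunit of the GABA-B receptor, had 17.3 reads in the control, 50.4% (32.4 to 67.6) of the gene, and 7.72 in the mimic, 34.0% (16.4 to 57.3), with the main peak at chr14:102978830-102978933 on the minus strand. Furin, a protease that matures secreted proteins, had 8.32 reads (29.7%) and 4.28 (19.9%) at 1 peak, chr7:80391170-80391253 on the minus strand, and its transcript held 1 seed match, in the coding sequence. Cdkn1b, the cell cycle inhibitor p27, had 4 reads, 9.27% (2.59 to 22.1) of the gene, in the control and 14, 31.2% (18.2 to 46.6), in the mimic at chr6:134924309-134924497 on the plus strand, with no match in its transcript. At the locus LOC115487699 miR-142a-3p had 4.54 reads (47.9%) and 9.82 (52.6%). This locus had no known strand, so overlap on the same strand was not shown for it. High in reads, but not in share, were 2 messages that drew many miRNAs. H19 had the most reads in both libraries, while Ttn lay below Kctd12 in the control. H19, a long noncoding RNA of growing tissue, had 28.7 and 35.1 reads of miR-142a-3p, which were 0.628% and 0.624% of its reads, and Ttn, the giant sarcomere protein titin, had 14.1 and 18.8, which were 0.0802% and 0.0796%.

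miR-142a-5p had a single prominent nuclear target, Id2, an inhibitor of basic helix-loop-helix transcription factors that lymphoid cells need. It held 4.98 of 5.43 reads in the control (91.7%, 47.8 to 100) and all 3.68 reads in the mimic, at chr12:25094277-25094368 on the minus strand. The Id2 transcript held none of the 7-base seed match of miR-142a-5p and 2 of its last 6 bases. Ptafr, the receptor for platelet-activating factor, had 1.66 and 2 reads of miR-142a-5p. Unc93b1, which carries Toll-like receptors to endosomes, was at 0 in the control but had 3 reads in the mimic, 62.6% (14.7 to 94.7) of the gene. Prpf4b, a splicing kinase, had 0 and 2.7 reads. The 4 leukocyte genes of the mimic, Unc93b1, Cd44, Laptm5 and C1qa, had no line of miR-142a-5p in the control, where 17 of all its 98 mimic genes (17.3%) had one.

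miR-223-3p led on Ctsz, a lysosomal cathepsin of macrophages, with 13.5 of 21.5 reads in the control (62.7%, 38.4 to 81.9) and 5.76 of 19.0 in the mimic (30.3%, 12.6 to 56.6), at chr2:174427769-174427873 on the minus strand. The next 2 genes of the control were at 0 in the mimic. Atp2b1, a calcium pump of the plasma membrane, had 9.77 reads in the control (39.6%, 21.1 to 61.3) and 0 of 49.9 in the mimic, and Snhg1, a small nucleolar RNA host gene, had 6.89 (47.3%, 21.3 to 73.4) and 0 of 15.9. Set against a floor of 3 reads in the mimic, the control values were 3.26-fold higher for Atp2b1 and 2.30-fold for Snhg1, before division by the totals. These folds are not lower bounds, since they leave out the counting error of the control reads. Its Poisson intervals were 4.80 to 18.4 reads for Atp2b1 and 2.81 to 14.4 for Snhg1. Both genes were also picked as among the highest of the control. In the mimic the next genes were Mob1b, a Hippo pathway adaptor, with 0 in the control and 3.09 reads, and Cd74, the MHC class II invariant chain, with 0 and 3. Of the leukocyte list, 8 genes had a line of miR-223-3p in the control and 5 in the mimic, with 3 in both. In the control alone there were lines on H2-Aa (2.61 reads), Laptm5 (2), Fcer1g and H2-Ab1 (1 each) and Csf1r (0.864), and in the mimic alone on Cd74 and on Cd84 (1.72 reads, 65.7% of the gene). Over all its target genes, 16.4% of those in the control and 24.4% of those in the mimic were in the other library too. Transcripts of Atp2b1 and Mob1b held 1 seed match each in the 3′ UTR, and that of Ctsz none of 7 bases and 1 of its last 6.

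**Figure D4:**
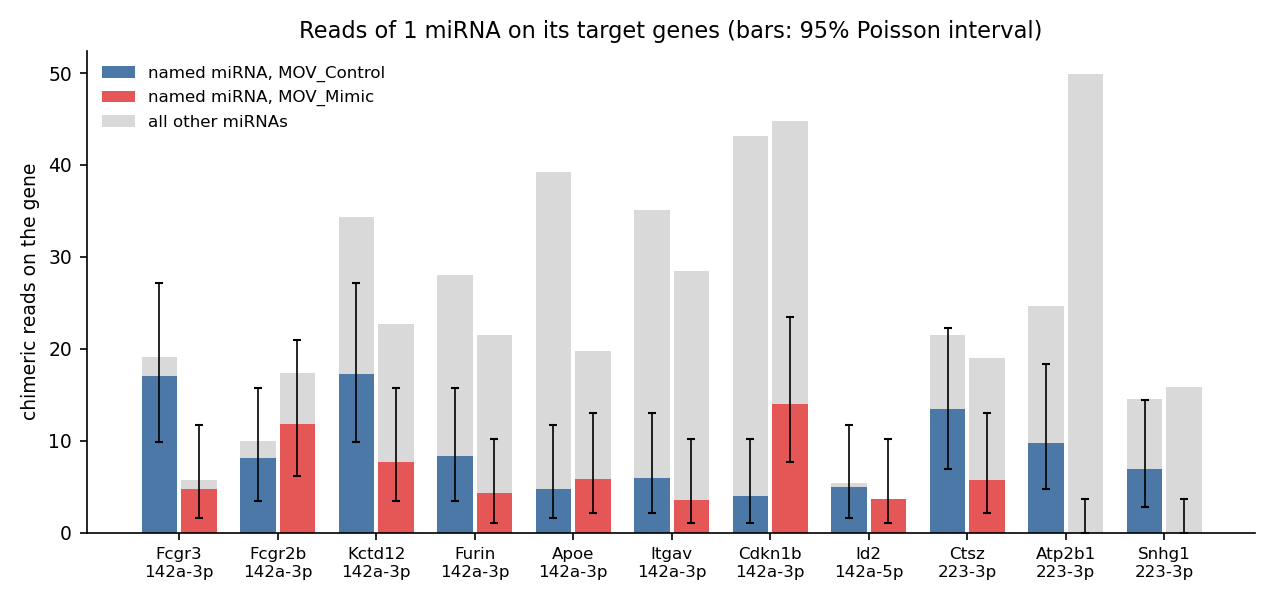
Chimeric reads (y axis) of 1 member on each of 11 named genes (x axis, gene and miRNA), blue in MOV_Control and red in MOV_Mimic with 95% Poisson intervals, stacked under the reads of all other miRNAs in grey. miR-142a-3p fills most of Fcgr3 and Fcgr2b and miR-142a-5p most of Id2 in both libraries, and miR-223-3p is at 0 on Atp2b1 and Snhg1 in the mimic.

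The miR-146 pair and miR-155-5p had few reads on any nuclear gene. The highest of miR-146a-5p were Zeb2, a transcription factor of macrophages and mesenchyme, with 3.53 and 0 reads, and Card10, an adaptor upstream of NF-kappa B, with 0 and 2.80 reads. Card10 was also reached by miR-146b-5p, with 0 and 1 reads, and its transcript held 1 match to the seed they share, in the 3′ UTR. Mcmbp, a replication factor, had 0 and 2.62 reads of miR-146a-5p, and Puf60, a splicing factor, 2 and 0. Sox6, a transcription factor that represses slow fibre genes, was reached by miR-146b-5p with 2 and 1 reads. The genes of miR-155-5p were led by Ttn with 2.60 and 0.579 reads and by Acta1, skeletal muscle actin, with 0.515 and 2.68. Csnk1g2, a casein kinase, had 0 and 2.17 reads, and Ube2d1, a ubiquitin-conjugating enzyme, 0.484 and 2, and the transcripts of both held 1 seed match in the 3′ UTR.

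Mitochondrial RNA took a large part of some members' reads. For miR-142a-3p it was 39.1% (36.3 to 42.0) in the control and 37.3% (34.4 to 40.3) in the mimic, and for miR-155-5p 55.1% (41.6 to 67.9) and 47.3% (37.7 to 57.0). The median of the 148 miRNAs was 2.51% and 2.79%, and 5% of them lay above 40.2% and 38.0%. miR-142a-5p had 10.6% and 12.7%, miR-146a-5p 12.8% and 15.5%, miR-146b-5p 4.14% and 12.2%, and miR-223-3p 1.76% and 6.55%. The ribosomal locus Rn18s-rs5 held 24.4% (16.7 to 33.8) of the reads of miR-142a-5p in the control and 16.4% (10.4 to 24.4) in the mimic, and between 4.26% and 11.5% of those of the other 5 members.

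**Figure D5:**
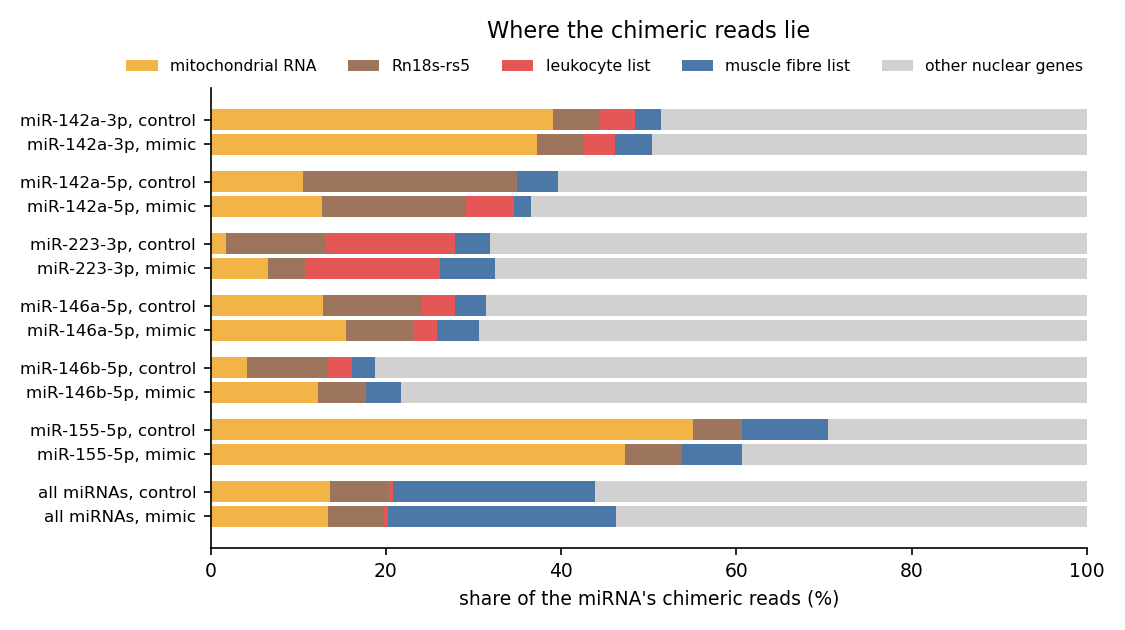
Share of each member's chimeric reads (x axis, percent) on mitochondrial RNA, Rn18s-rs5, the leukocyte list, the muscle fibre list and other nuclear genes, 1 bar a library, with all miRNAs at the bottom. Mitochondrial RNA holds 39.1% and 37.3% for miR-142a-3p and 55.1% and 47.3% for miR-155-5p, and the leukocyte part is widest for miR-223-3p.

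The mitochondrial reads of miR-142a-3p lay at a few peaks. The largest was in ND4, a subunit of respiratory complex I. There miR-142a-3p had 181 reads (156 to 209) at chrM:11455-11539 in the control, 31.8% (28.0 to 35.9) of the peak and the first of 49 miRNAs in it. In the mimic the peak was wider, chrM:11384-11539, and held 175 reads (150 to 203), 18.6% (16.2 to 21.3) of the peak, the second of 64 miRNAs. A neighbouring control peak, chrM:11383-11454, held 28.8. At ND1 it had 68.7 control and 73.5 mimic reads, and at the large ribosomal RNA mt-Rnr2 65.2 and 54.8, each under 2% of its peak. In the cytochrome b gene it had 49.8 reads (37.1 to 65.9) at chrM:14261-14340 in the control, 41.4% (32.7 to 51.0) of the peak, and 30.6 reads (21.1 to 44.0) at chrM:14288-14327 in the mimic, 45.1% (33.5 to 58.1). It was the first miRNA of that peak in both libraries. Of ND1, ND4, ND5 and the cytochrome b gene, the last held 1 match to the miR-142a-3p seed, ACACTAC, at chrM:14303-14309, inside the peak of both libraries, and the other genes held none. In mt-Rnr2 no match was looked for. The stretch is the first of the sequences printed above.

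For miR-155-5p the ND1 peak alone held 24.6 of 59.8 reads in the control, 41.1% (29.1 to 55.1), and 37.7 of 110 in the mimic, 34.4% (25.7 to 44.2). The peak spanned chrM:3467-3632 in the control and chrM:3469-3629 in the mimic. It drew 99 and 105 miRNAs, and miR-155-5p was 0.645% and 0.711% of it. The nearest match to the miR-155-5p seed, AGCATTA, stood 12 bases past the end of the control peak and 15 past that of the mimic peak.

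The share of transcripts with the seed match was higher among target genes than among all genes with lines for each of the 6 miRNAs, but per kilobase this did not hold for the miR-146 pair. The match to miR-142a-3p, ACACTAC on the sense strand, was in the longest transcript of 14.2% of 6858 genes that had a line of any miRNA and a coding transcript. It was in 26.7% of 652 genes with a line of miR-142a-3p, in 29.2% of 353 with at least 1 read over both libraries and in 42.9% of 77 with at least 3. Per kilobase the matches numbered 0.0426 in all these genes and 0.105 in those with at least 3 reads. For miR-155-5p (AGCATTA) the share was 16.4% of all and 40.8% of 71 target genes, for miR-142a-5p (ACTTTAT) 23.0% and 40.4% of 141, and for miR-223-3p (AACTGAC) 17.6% and 23.6% of 157. The match of the miR-146 seed (AGTTCTC) was in 26.2% of all genes, in 33.6% of 119 genes of miR-146a-5p and in 33.8% of 68 genes of miR-146b-5p. The median transcript had 3399 bases over all the genes and 3886 over the targets of miR-142a-3p, so the shares also hold a difference in length, which the values per kilobase do not. Per kilobase, target genes against all genes had 0.104 against 0.0501 matches for miR-155-5p, 0.121 against 0.0760 for miR-142a-5p and 0.0774 against 0.0537 for miR-223-3p. For the miR-146 seed it was 0.0770 in the genes of miR-146a-5p and 0.0783 in those of miR-146b-5p, both below the 0.0840 of all genes. The miR-155-5p match was in 21.5% of the 353 miR-142a-3p genes, against 16.4% of all. Per kilobase the own match numbered 0.0771 in those 353, against 0.0426 in all. The miR-155-5p match numbered 0.0593, against 0.0501, and that of miR-142a-5p 0.0817, against 0.0760. For miR-223-3p it was 0.0541 against 0.0537, and for miR-146 0.0719 against 0.0840. In genes with at least 1 read the miR-155-5p match numbered 0.0809 per kilobase for miR-223-3p and 0.0708 for miR-142a-5p, against 0.0501 in all. The own match numbered 0.0834 there for miR-223-3p, against 0.0537, and 0.102 for miR-142a-5p, against 0.0760. In the genes of miR-155-5p with at least 1 read the own match numbered 0.0836, against 0.0501, and the miR-223-3p match 0.0794, against 0.0537. The other matches were lower in these than in all genes. The excess of miR-223-3p, miR-142a-5p and miR-155-5p was thus not particular to the own seed. The miR-146 match was lower in the genes of miR-223-3p and miR-142a-5p than in all genes (0.0638 and 0.0538 against 0.0840).

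Some genes listed as targets of these miRNAs from general knowledge were reached. The lists were made with earlier results of these data known, so the shares below cannot be taken as independent of the data. Of 17 listed targets of miR-142a-3p, all 17 had a line of some miRNA and 5 had one of miR-142a-3p in either library (29.4%), against 9.27% of 8023 genes with any line. These were Itgav, the integrin subunit alpha V, with 5.93 and 3.55 reads, Cfl2, the muscle form of the actin-severing protein cofilin, with 2.62 and 6.24, Zeb2 with 3.08 and 1.69, Ash1l, a histone methyltransferase, with 4.45 and 0, and Wasl, an actin nucleation factor, with 0 and 0.488. For miR-223-3p it was 3 of 16 listed targets with any line (18.8%, against 2.18% of all genes), namely Stat3, a cytokine signalling factor, with 5.25 and 0 reads, the ubiquitin ligase gene Fbxw7 with 0.373 and 0, and the lysosomal protease gene Ctsl with 0 and 1.01. miR-155-5p had 4 of 26 (15.4% against 1.1%), Maf, Smad5, Jarid2 and Picalm, each with at most 1 read in a library. miR-142a-5p had 1 of 9 (11.1% against 2.06%), the antioxidant regulator Nfe2l2, with 1 and 0 reads. miR-146a-5p and miR-146b-5p had 1 of 15 each (6.67%, against 1.71% and 0.972%), Card10, and neither had a line on Traf6 or Irak1, their best known targets.

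Lines with more reads were found again more often. Of the control lines of miR-142a-3p, 24% (20.7 to 27.4) overlapped a line of the same miRNA in the mimic by at least 1 base, rising with depth from 17.3% of those under 1 read to 22.7% of those from 1 to under 3 and 39 of 46 of those with at least 3. For miR-223-3p it was 12.2% (7.82 to 17.9), and 7 of 12 with at least 3 reads. The other members had 17.1% (10.6 to 25.4) for miR-142a-5p, 19.5% (11.8 to 29.4) for miR-146a-5p, 11.1% (4.19 to 22.6) for miR-146b-5p and 31.5% (19.5 to 45.6) for miR-155-5p, and the median of the 148 miRNAs was 24.5%. The target genes of the libraries overlapped in part. miR-142a-3p had 464 of them in control muscle against 428 under the mimic, and 148 were the same, 31.9% and 34.6% of each. miR-223-3p had 116 and 78, of which 19 were the same, 16.4% and 24.4%. The median over the 148 miRNAs was 28.7% of the control's genes and 27.1% of the mimic's, and 5% of them lay below 16.1% and 16.5%.

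At the lines found in both libraries the reads of miR-142a-3p were level and those of miR-223-3p were lower in the mimic. The median log2 change from control to mimic was 0.08 over 145 shared lines of miR-142a-3p, 79 of them higher in the mimic, and -1.30 over 20 of miR-223-3p, 5 of them higher. It was 0.27 over 15 of miR-155-5p with 12 higher, 0.57 over 14 of miR-146a-5p with 10 higher, 0.09 over 18 of miR-142a-5p and -0.09 over 6 of miR-146b-5p. Over 31113 shared lines of all miRNAs it was 0.04. Among the 24 shared lines of miR-142a-3p with at least 3 reads in both libraries, 4 were at least 2-fold higher and 2 at least 2-fold lower in the mimic, where 15.8% of 6308 such lines of all miRNAs were past 2-fold in either direction. The largest falls among the members were at Fcgr3 with a ratio of 0.278 (0.0848 to 0.831), Kctd12 with 0.345 (0.114 to 0.938) and Ctsz with 0.428 (0.144 to 1.30). The largest increases were at Cdkn1b with 3.5 (1.1 to 14.6), at a line of miR-142a-5p in ND5 with 2.53 (0.749 to 17.2) and at LOC115487699 with 2.16 (0.623 to 7.46). These are the extremes of all the members' lines, so their intervals do not allow for the choice.

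The miR-146 pair shared some places. They were listed in the same peak 11 times in the control and 8 times in the mimic, which was 12.6% and 6.96% of the lines of miR-146a-5p and 20.4% and 15.7% of those of miR-146b-5p. The arms of miR-142a met in 28 and 26 peaks, 4.33% and 4.25% of the lines of miR-142a-3p and 25.2% and 20.3% of those of miR-142a-5p. How reads were given to 1 of 2 alike names was not stated.

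Each miRNA was also compared with the 147 others by its pattern over 1276 nuclear genes with at least 20 reads in each library. The measure was Pearson's r of the log2 of observed over expected reads, both with 0.5 added, and it is a description over genes that share libraries and depth. For members with few nuclear reads, such as miR-155-5p with 23.6 and 50.7, most genes hold 0 observed reads. Their values then follow the gene's total over all miRNAs, which raises r between rare miRNAs without shared targets. The r below thus do not show shared targeting. miR-146a-5p and miR-146b-5p were each other's closest, with an r of 0.38 in the control and 0.36 in the mimic. miR-142a-3p was closest to miR-130a-3p (0.43 and 0.40), then to miR-301a-3p (0.35 by the mean of both libraries) and miR-152-3p (0.30). miR-223-3p was closest to miR-342-3p (0.32 and 0.35), miR-155-5p to miR-223-3p (0.32 and 0.29) and miR-142a-5p to miR-130a-3p (0.26 and 0.38). miR-130a-3p was also among the 3 closest of miR-223-3p and miR-146a-5p.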

How the data were processed

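The eCLIP-seq files of the MOV_Control and MOV_Mimic libraries were used. They hold estimated counts that the authors deposited, the chimeric reads of 1 miRNA in 1 peak, mostly fractions whose origin was not stated, and not scaled to depth. Per the labels the tools were UMI-tools 1.1.1, cutadapt 3.2, STAR 2.7.7a, Bowtie 1.2.3 and HOMER 4.11, and the build was mm10, while the methods name mm9. As 36 and 35 peaks lay beyond mm9 chromosome ends, GRCm38 (mm10) positions are given, counted from 1. The methods name CLIPper for peaks and state that a primer for miR-1 was used to amplify chimeras, so read numbers are not miRNA abundance.

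A peak was given the RefSeq gene of GRCm38.p6 with the largest overlap on its strand. Of 49980 genes, 28097 had a strand in GRCm38 tables, 8338 took it by name from mm9 GENCODE and 13508 had none and were used only where no gene on the strand overlapped. For 99.3% and 99.4% of the members' lines a gene was found. GRCm38 exons were not used here, so positions of nuclear peaks within transcripts were not determined. Seed matches were looked for in mm9 transcripts and in mitochondrial genes, whose spans are identical in both builds.

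With 1 library a group there was no test. Intervals (95%, SciPy 1.17.1) used reads rounded to whole numbers. They cover counting error only, since reads are not independent molecules. A count of 0 was taken to allow 3 reads. A miRNA had to have at least 50 lines in each library to enter the 148 of comparison. Named genes were, for each member, the 5 (miR-142a-3p) or 3 genes with the most reads in each library outside mitochondria and Rn18s-rs5, as many with the largest share of the gene's reads among genes with at least 10 reads in each library, mitochondrial sites of at least 10 reads, the 3 highest and 3 lowest ratios at shared lines of at least 3 reads in both, and listed targets with at least 3 reads in both. Other members of the marker and target lists are named beside their counts. The members and the lists were chosen with earlier results of these data known, and Fcgr3 and Ctsz had been seen as targets of members in the study's supplement before they were listed. Functions were tested on simulated data.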

Additional observations from a re-analysis of the deposited data

How the results depend on the processing

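The mimic to control read ratio kept its direction for miR-223-3p and miR-155-5p under every alternative run, from 0.122 to 0.486 for miR-223-3p and from 1.65 to 2.15 for miR-155-5p. With lines of at least 3 reads, a limit set within each library, it was 0.122 for miR-223-3p, with 12 control and 2 mimic lines left. For miR-146a-5p, with 4 and 1 lines left, it was 0.418, the opposite direction to the 1.15 of all lines. With lines of at least 1 read it was 0.587 for miR-146b-5p. After division by the library totals it was 0.828 for miR-142a-3p, whose median log2 change at shared lines became -0.0768. Leaving out the line with the most reads, an alternative added after seeing the data, moved none of the 6 ratios out of its interval. Values are given below for the control and then the mimic, and a count passes as unmoved within 1.5 times of the one reported, a share within its interval. Of 301 alternative values, 163 stayed and 138 did not. Most of those rest on fewer lines by construction, and the cause of the others was not tested.

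The share of all reads, in percent, with lines of at least 1 read was 0.466 and 0.387 for miR-142a-3p, 0.0320 and 0.0348 for miR-142a-5p, 0.0632 and 0.0218 for miR-223-3p, 0.0231 and 0.0220 for miR-146a-5p, and 0.0105 and 0.00549 for miR-146b-5p. With lines of at least 3 reads it was 0.403 and 0.324 for miR-142a-3p, 0.0181 and 0.0162 for miR-142a-5p, 0.0445 and 0.00478 for miR-223-3p, 0.00866 and 0.00318 for miR-146a-5p, and 0.0153 and 0.0262 for miR-155-5p. Without mitochondrial lines it was 0.351 and 0.299 for miR-142a-3p and 0.0134 and 0.0258 for miR-155-5p, and without Rn18s-rs5 0.0368 for miR-142a-5p in the control. With related names added together it was 0.544 and 0.459 for the arms of miR-142a and 0.0474 and 0.0463 for the miR-146 pair. The share of lines in place of reads was 0.692 and 0.607 for miR-142a-3p, 0.119 and 0.127 for miR-142a-5p, 0.193 and 0.0961 for miR-223-3p, 0.0931 and 0.114 for miR-146a-5p, 0.0578 and 0.0505 for miR-146b-5p, and 0.0578 and 0.0773 for miR-155-5p.

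The lines of at least 1 read numbered 266 and 252 for miR-142a-3p, 35 and 45 for miR-142a-5p, 58 and 35 for miR-223-3p, 31 and 34 for miR-146a-5p, 18 and 11 for miR-146b-5p, and 14 and 31 for miR-155-5p, on 227 and 210, 27 and 41, 52 and 33, 27 and 31, 18 and 11, and 13 and 30 genes. Those of at least 3 reads numbered 46 and 48 for miR-142a-3p, 4 and 4 for miR-142a-5p, 12 and 2 for miR-223-3p, 4 and 1 for miR-146a-5p, and 1 and 4 for miR-155-5p, on 33 and 39, 3 and 4, 10 and 2, 3 and 1, and 1 and 3 genes, and they left 3, 0, 1, 0 and 0 listed targets for these and 0 for miR-146b-5p. With names added together, target genes numbered 525 and 502 for miR-142a-5p and 100 and 113 for miR-146b-5p.

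The leukocyte share, in percent, with lines of at least 3 reads was 20.7 and 10.5 for miR-142a-3p, 44.9 for miR-142a-5p and 100 for miR-223-3p in the mimic, where 2 lines were left, and 0 for miR-146a-5p in the control. As a share of lines it was 3.30 and 2.97 for miR-142a-3p and 8.24 and 5.68 for miR-223-3p. Over reads on the leukocyte and muscle lists alone it was 56.6 and 45.7 for miR-142a-3p, 73.9 for miR-142a-5p in the mimic, 78.8 and 71.1 for miR-223-3p, 51.9 and 36.0 for miR-146a-5p, and 52.0 for miR-146b-5p in the control. Without Fcgr3 and Ctsz it was 4.42 for miR-142a-3p in the control, and 8.0 and 8.92 for miR-223-3p. Rn18s-rs5 was outside this share already.

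The overlap of control lines, in percent, with lines of at least 1 read was 29.3 for miR-142a-3p, 25.7 for miR-142a-5p and 19.0 for miR-223-3p, and with lines of at least 3 reads in both libraries 56.5, 100 for miR-142a-5p and 100 for miR-155-5p. It was 20.1 for miR-142a-3p with 50% of both peaks, and 21.6 for miR-223-3p counted from the mimic. With a line of any miRNA it was 66.5, 69.4, 75.0, 67.8, 74.1 and 79.6 for miR-142a-3p, miR-142a-5p, miR-223-3p, miR-146a-5p, miR-146b-5p and miR-155-5p. Of miR-146b-5p no line of at least 3 reads was left, so no value came of it.

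No paired analysis was possible because the design holds 1 library of each virus, and for the same reason none was left out. Depth limits the members other than miR-142a-3p most, whose leukocyte shares have wide intervals, and single genes with 1 to 3 reads carry no order.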
